A study of Mus musculus with 15 samples.

Results

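The comparison of cells carrying the F191G form of Twist1 with cells carrying an empty vector (VEC) was made on 6 of the 15 arrays of the series, those titled F191G A, B and C and VEC A, B and C. The cells are Myc-CaP, a line from a prostate tumour of a mouse with a Myc transgene in its prostate, and RNA was measured on single-colour Affymetrix arrays (Mouse Gene 1.0 ST). F191G replaces a phenylalanine by a glycine in the Twist box of Twist1, VEC cells received the vector alone, and all of them carry the Myc transgene of the line. Per the labels the cells were transfected, selected and harvested once confluent, although the construct is listed under a knock-in heading; which promoter drives it and how many clones were kept is not stated. The other 9 arrays hold wild-type Twist1 (WT) and the forms named AQA and DQD, which entered the same model. The series' design text names F191G against VEC as one of its comparisons.

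Twist1 belongs to the basic helix-loop-helix transcription factors, binds E-box sequences as a dimer with E proteins and drives epithelial-mesenchymal transition in development and in carcinoma cells. The Twist box is a conserved stretch near its C-terminus, described as a transactivation domain and as a surface that binds other transcription factors. Several of the genes described here belong to the type I interferon response, in which secreted interferon binds the receptor of Ifnar1 and Ifnar2, and a complex with Stat2 and Irf9 then binds interferon-stimulated response elements (ISRE) at antiviral genes such as the Ifit and Oas families. Others are chemokines and inhibitors under NF-kB, a transcription factor that many inflammatory signals activate and that drives its own inhibitor Nfkbia.

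Promoter stretches of 5 genes are shown because they hold the motifs that the interferon and chemokine groups were searched for. The like stretches of Ogfr, Irf7 and Irf9 held 0 ISRE matches and are not shown, and Cxcl5 and Ifi27 have no window. Of the 5 genes, Ifit3 alone differed between F191G and VEC cells at the threshold used below. Each stretch is the 250 bases before the start site from RefSeq on GRCm38.p6, read 5′ to 3′ on the strand of the gene. Capitals mark the ISRE letters GAAANNGAAA for Ifit3 and Ifit1 and the NF-kB letters GGGNNTTTCC for the other 3 genes, on either strand. Ifit3 lies on the plus strand at chr19:34583279-34583528 and Ifit1 on the plus strand at chr19:34640639-34640888. Cxcl1 lies on the plus strand at chr5:90890995-90891244, Cxcl2 on the plus strand at chr5:90903649-90903898 and Nfkbia on the minus strand at chr12:55492648-55492897.
Ifit3: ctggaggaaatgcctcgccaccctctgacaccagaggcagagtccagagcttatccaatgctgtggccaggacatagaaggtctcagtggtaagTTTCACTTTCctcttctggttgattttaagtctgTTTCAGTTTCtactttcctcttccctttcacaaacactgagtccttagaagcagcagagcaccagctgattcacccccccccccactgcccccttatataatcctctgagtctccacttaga
Ifit1: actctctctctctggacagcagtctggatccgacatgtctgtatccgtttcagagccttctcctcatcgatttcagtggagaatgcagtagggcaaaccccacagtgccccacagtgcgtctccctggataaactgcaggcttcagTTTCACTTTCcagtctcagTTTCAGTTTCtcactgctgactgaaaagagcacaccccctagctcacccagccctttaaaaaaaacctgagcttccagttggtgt
Cxcl1: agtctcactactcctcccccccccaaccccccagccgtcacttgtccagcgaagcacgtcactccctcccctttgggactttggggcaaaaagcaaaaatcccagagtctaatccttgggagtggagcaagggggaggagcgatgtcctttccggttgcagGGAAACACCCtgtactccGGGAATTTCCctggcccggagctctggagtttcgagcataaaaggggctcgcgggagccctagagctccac
Cxcl2: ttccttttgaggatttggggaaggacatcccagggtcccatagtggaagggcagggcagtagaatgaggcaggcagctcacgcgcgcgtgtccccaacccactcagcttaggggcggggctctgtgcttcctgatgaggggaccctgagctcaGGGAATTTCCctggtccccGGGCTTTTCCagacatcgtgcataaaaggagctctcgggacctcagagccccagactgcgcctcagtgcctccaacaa
Nfkbia: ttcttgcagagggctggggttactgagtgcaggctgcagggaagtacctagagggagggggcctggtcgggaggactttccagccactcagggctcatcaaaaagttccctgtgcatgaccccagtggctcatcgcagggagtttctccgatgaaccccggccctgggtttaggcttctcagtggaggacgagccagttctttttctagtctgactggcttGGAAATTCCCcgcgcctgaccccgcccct

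The deposited values are on a log2 scale, and 19297 genes were tested with group and labelled array batch as terms. Batch A holds F191G A, VEC A and VEC B, and batch B holds F191G B, F191G C and VEC C. The 6 arrays correlated with each other at 0.9952 to 0.9982 over all genes, and their replicate letters did not pair them. The labels do not say whether replicates came from separate cultures, so the p-values rest on a spread between arrays that may be technical. In bulk RNA, fewer cells that express a gene and less of its RNA per cell cannot be told apart. The Twist1 probe set read 6.65, 6.85 and 6.76 in F191G cells, against 6.45, 6.71 and 6.13 in VEC cells, a difference of 0.32 (SE 0.151, limma adjusted p = 0.429). These values overlap, the difference was 0.06 within batch A and 0.68 within batch B, and it ran from 0.10 to 0.46 when 1 of the 6 arrays was left out. Which region of the transcript the probe set reads is not stated in the labels, so they do not check the labels.

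The defining markers of prostate epithelium were examined in the same arrays. Epcam, an epithelial adhesion molecule, read 4.96, 5.03 and 5.09 in F191G cells, against 5.15, 5.04 and 5.07 in VEC cells, and the luminal keratin gene Krt8 read 8.15, 7.99 and 8.11 in F191G cells, against 8.89, 7.57 and 8.14 in VEC cells. Both overlapped. Krt18, the luminal partner of Krt8, read 5.74, 5.66 and 5.60 in F191G cells, against 5.86, 5.78 and 6.04 in VEC cells (difference -0.23, SE 0.0743, limma adjusted p = 0.276), and the basal keratin gene Krt5 differed by -0.15 (adjusted p = 0.641). E-cadherin (Cdh1) averaged 5.54 ± 0.03 in F191G cells and 5.66 ± 0.05 in VEC cells (SD, n = 3 each; adjusted p = 0.505). For Krt18, Krt5 and Cdh1, as for the basal keratin Krt14 described with the other keratins, every F191G array lay below every VEC array, and none of these markers passed the test. The medians of all 15 arrays lay between 6.31 and 6.42, but probe sets differ in brightness and no detection calls were used, so a low value does not show that a marker is absent. The androgen receptor was not analysed here. Of 29 haematopoietic marker genes 0 passed the test (4 at an unadjusted p under 0.05, which 11.7% of all genes had). In 9 of the 29 (31.0%) every F191G array lay below every VEC array, beside 13.3% of all genes, and their mean level ran from 5.00 to 5.11 on the F191G arrays and from 5.09 to 5.11 on the VEC arrays.

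In F191G cells 9 genes rose and 10 fell against VEC at a Benjamini-Hochberg adjusted p under 0.05, the threshold at which a gene is called. These 19 genes are 0.0985% of all genes tested, 0.0466% called higher and 0.0518% called lower. The largest rises were those of the antiviral gene Ifit3, the prostate membrane antigen gene Folh1, the interferon-induced gene Ifi27 and Rassf4, and the largest falls those of the troponin gene Tnnt2, the chemokine gene Cxcl5, the neuropeptide gene Npy and Mustn1. For all 19 genes the 3 F191G arrays lay wholly above or wholly below the 3 VEC arrays. Such separation by itself fixes the sign of the difference within each batch, so equal signs in batch A and batch B add nothing to it. The choice of the called genes favours such separation: of all genes, 7.76% had every F191G array above every VEC array and 13.3% every F191G array below. The calls rested on few arrays: 0 were made by limma without F191G A, without F191G C or without VEC C (1656, 2179 and 1203 genes at an unadjusted p under 0.05), 5 without F191G B and 7 without VEC A. In those 5 fits and in the one without VEC B, the 19 differences kept their direction, none of them was called in more than 3 of the 6, and no difference shrank by more than 1.29 times.

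**Figure D1:**
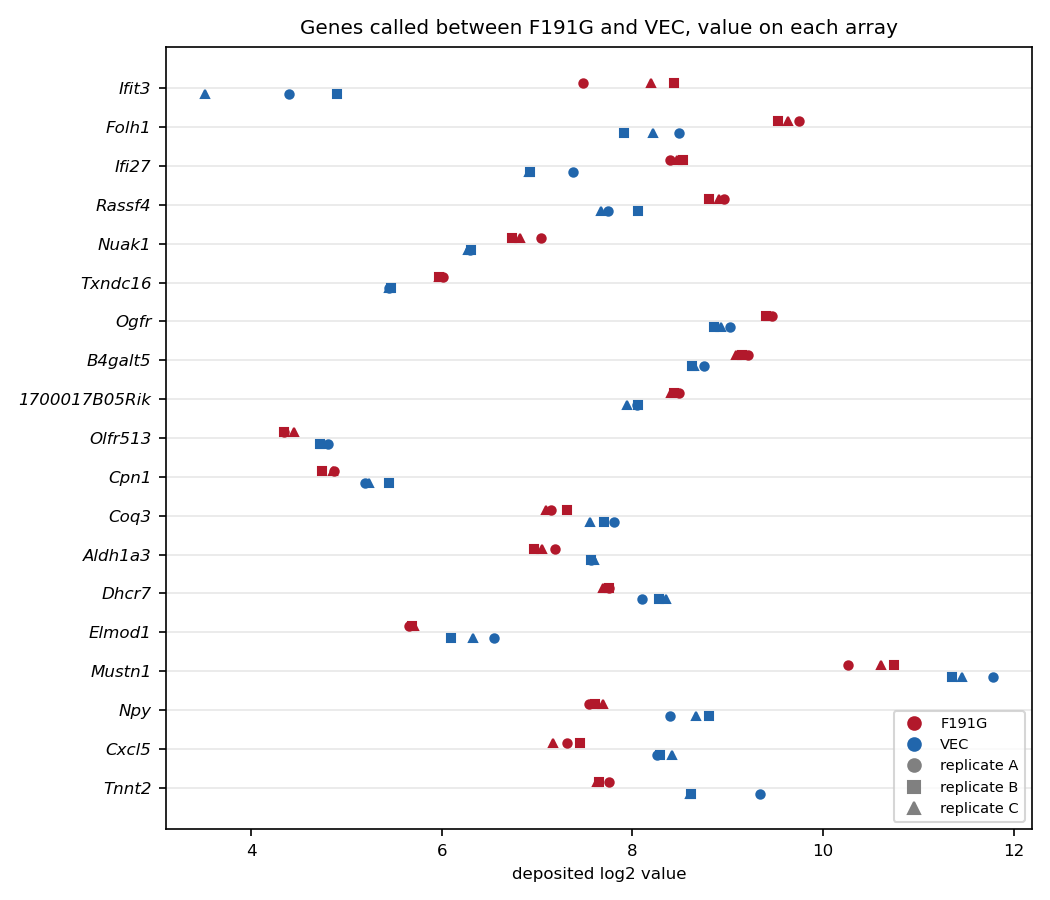
Deposited log2 value (horizontal axis) of the 19 genes called between F191G and VEC, 1 row per gene, ordered by the size of the difference. Each point is 1 array, red for F191G and blue for VEC, with the replicate letter as its shape; the colours do not mix in any row, and Ifit3 shows the widest gap.

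Of the interferon-stimulated effector genes 3 rose in F191G cells, and most of the others read higher without passing the test. Ifit3, which belongs to a family of proteins that bind viral RNA or its complexes, read 7.48, 8.44 and 8.19 in F191G cells, against 4.40, 4.90 and 3.52 in VEC cells. The lowest F191G array, replicate A, lay far above the highest VEC array, replicate B. The difference was 3.76 (SE 0.537, adjusted p = 0.0277), or 13.6-fold, with 2.83 within batch A and 4.80 within batch B. Without 1 array it ran from 3.20 to 4.18. Ifit3b, a near-identical neighbour of Ifit3 whose RNA the probe sets may share, read 4.08, 5.12 and 4.67 in F191G cells, against 2.66, 3.25 and 2.85 in VEC cells (difference 1.70, SE 0.494, adjusted p = 0.221). Here too the groups did not overlap.

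Ifi27, a small interferon-induced membrane protein gene, read 8.40, 8.53 and 8.47 in F191G cells, against 7.38, 6.93 and 6.92 in VEC cells. The F191G arrays were close together, whereas VEC A stood above the other two VEC arrays. The difference was 1.39 (SE 0.162, adjusted p = 0.00801), or 2.62-fold, with 1.24 within batch A and 1.58 within batch B. Ogfr, the opioid growth factor receptor gene, read 9.46, 9.40 and 9.43 in F191G cells, against 9.02, 8.85 and 8.93 in VEC cells, a rise of 0.49 (SE 0.082, adjusted p = 0.0462).

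Of 47 measured effector genes 3 rose and 0 fell, beside 0.0466% and 0.0518% of all genes, and 36 had an unadjusted p under 0.05, beside 11.7%. The median difference of the 47 genes was 0.97, beside -0.03 over all genes, and 43 of the 47 differences were positive. In 36 of them (76.6%) every F191G array exceeded every VEC array, and in 0 the reverse held, beside 7.76% and 13.3% of all genes. Array by array, the median distance of the 47 genes from their VEC mean was 0.78, 1.16 and 0.95 in F191G cells, against 0.33, -0.13 and -0.20 in VEC cells. It was 0.67, 1.12 and 0.80 in WT cells and 0.74, 1.21 and 1.01 in DQD cells, so such a distance is not particular to F191G. In AQA cells it was 0.87, -0.05 and 0.04. F191G A was the lowest F191G array for 37 of the 47 genes, and VEC A was the highest VEC array for 38 of them, so the replicates labelled A stood closer together than the others. The median difference was 0.67 within batch A, 1.22 within batch B and 0.84 to 1.11 when 1 of the 6 arrays was left out. Without an array the number of called members was 0 for F191G A, F191G C and VEC C, 1 for F191G B and VEC A, and 2 for VEC B.

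**Figure D2:**
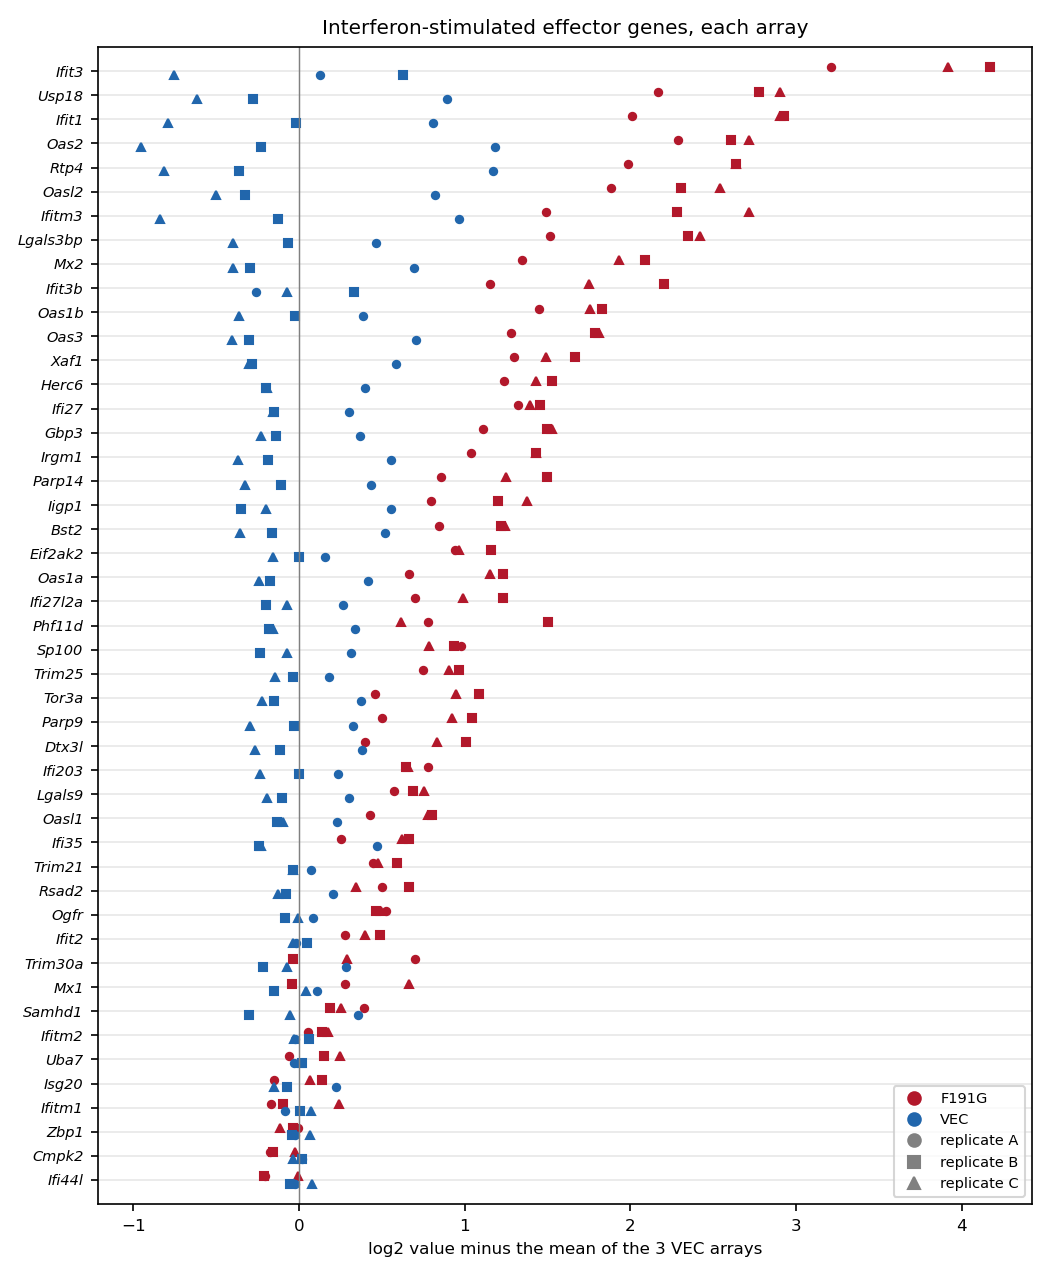
Log2 value minus the mean of the 3 VEC arrays (horizontal axis) for the 47 measured interferon-stimulated effector genes, 1 row per gene and 1 point per array, red for F191G and blue for VEC. Red points lie to the right of all blue points in 36 rows; the lowest rows, such as Ifi44l and Zbp1, show no separation.

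Several other effectors had large differences that did not pass the test. Ifit1 read 6.20, 7.12 and 7.09 in F191G cells, against 5.00, 4.17 and 3.40 in VEC cells, a difference of 2.61 (SE 0.569, adjusted p = 0.117). Usp18, the protease that removes the ubiquitin-like Isg15 and restrains interferon signalling, read 6.96, 7.57 and 7.70 in F191G cells, against 5.69, 4.52 and 4.18 in VEC cells (difference 2.62, SE 0.660, adjusted p = 0.169). In both genes the groups did not overlap, but the VEC arrays were widely spread, with VEC A on top. The SE is that of all 5 groups, and AQA cells were spread more widely than VEC cells. They read 6.13, 3.85 and 4.24 for Ifit1 and 7.34, 4.74 and 4.78 for Usp18. Of the oligoadenylate synthetases, which make the activator of RNase L, Oas2 differed by 2.54 (adjusted p = 0.130), Oasl2 by 2.24 (adjusted p = 0.117) and Oas1b by 1.68 (adjusted p = 0.0750); members of this family are alike in sequence, so their probe sets may share RNA. Lgals3bp, a secreted galectin-binding protein gene, differed by 2.09 (SE 0.440, adjusted p = 0.103), and Trim25, the ubiquitin ligase that acts on the sensor RIG-I, by 0.87 (adjusted p = 0.0785). At the other end, Zbp1 read 5.73, 5.70 and 5.62 in F191G cells, against 5.71, 5.69 and 5.81 in VEC cells, and Mx1 read 4.09, 3.76 and 4.47 in F191G cells, against 3.91, 3.66 and 3.85 in VEC cells, so both overlapped.

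Of 28 genes of RNA sensing and interferon signalling 0 passed the test (9 at an unadjusted p under 0.05), and their median difference was 0.00. In 6 (21.4%) every F191G array lay above every VEC array, beside 7.76% of all genes. In 6 others (21.4%), Irf1 and Sting1 among them, every F191G array lay below, beside 13.3% of all genes. The ligand Ifnb1 read 4.19, 4.36 and 4.11 in F191G cells, against 4.14, 4.18 and 4.26 in VEC cells. The receptor chain Ifnar1 read 8.42, 8.56 and 8.58 in F191G cells, against 8.48, 8.53 and 8.53 in VEC cells, and the kinase Jak1 9.80, 9.80 and 9.75 in F191G cells, against 9.64, 9.80 and 9.79 in VEC cells. These 3 genes overlapped between the groups. Irf9, the DNA-binding partner of Stat2, read 7.58, 7.90 and 7.81 in F191G cells, against 6.95, 6.59 and 6.37 in VEC cells (difference 1.12, SE 0.219, adjusted p = 0.0947). Ddx58, which encodes RIG-I, differed by 1.93 (SE 0.380, adjusted p = 0.0947), Irf7, an interferon-induced factor, by 2.19 (SE 0.600, adjusted p = 0.206) and Stat2 by 0.75 (SE 0.196, adjusted p = 0.180). In these 4 genes every F191G array exceeded every VEC array, and all 4 are themselves known to be induced by interferon. Irf1, a factor that both interferon gamma and NF-kB induce, went the other way: it read 7.54, 8.40 and 8.22 in F191G cells, against 9.99, 8.87 and 8.82 in VEC cells (difference -1.17, SE 0.458, adjusted p = 0.350).

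Antigen processing genes read higher on the F191G arrays without passing the test. Of 16 measured, 0 passed the test (11 at an unadjusted p under 0.05), the median difference was 0.30, all 16 differences were positive, and in 11 (68.8%) every F191G array exceeded every VEC array, beside 7.76% of all genes. Tap1, a peptide transporter subunit, averaged 6.57 ± 0.24 in F191G cells and 5.84 ± 0.29 in VEC cells (SD, n = 3 each), with adjusted p = 0.224. The immunoproteasome subunit genes Psmb8 and Psmb9 differed by 0.52 (adjusted p = 0.177) and 0.31 (adjusted p = 0.221). B2m, the light chain of class I molecules, read 12.18, 12.23 and 12.27 in F191G cells, against 12.03, 11.83 and 11.86 in VEC cells (difference 0.32, adjusted p = 0.247).

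The motif search was read against all genes. An ISRE match stood in 3.44% of the 32851 windows of 250 bases before to 50 after a start, and in 3.90% of the 15161 array genes that have a window. Of 34 effector genes with a window 17 (50%) held one; the Ifit3 stretch printed above has matches 156 and 122 bases before the start, and the Ifit1 stretch 104 and 85 bases before it, all on the opposite strand. Effectors with a match had a median difference of 1.02 and those without one 0.67. Over all array genes the values were -0.01 for the 592 genes with a match and -0.02 for the 14569 without, and every F191G array exceeded every VEC array in 12.3% and 7.93% of them. The letters are short and the effector list was chosen for this response, so these shares are a description.

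The other called rises belong to unrelated functions. Folh1 encodes prostate-specific membrane antigen, a carboxypeptidase of luminal prostate cells. It read 9.75, 9.53 and 9.63 in F191G cells, against 8.48, 7.92 and 8.22 in VEC cells, and the groups were well apart. The difference was 1.43 (SE 0.162, adjusted p = 0.00801), or 2.70-fold, and 1.29 to 1.56 without 1 array. Of 29 androgen response and luminal prostate genes Folh1 was the 1 that rose and 0 fell, beside 0.0466% and 0.0518% of all genes. The median difference of that list was -0.03, and 1 call does not describe it. F191G cells averaged 9.64 ± 0.11 for Folh1, DQD cells 10.01 ± 0.13, AQA cells 8.74 ± 0.32 and WT cells 9.65 ± 0.08 (SD, n = 3 each).

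Rassf4, a Ras association domain gene, read 8.97, 8.81 and 8.91 in F191G cells, against 7.75, 8.06 and 7.67 in VEC cells, a rise of 1.07 (SE 0.153, adjusted p = 0.0277) that was 1.06 within batch A and 1.19 within batch B. Nuak1, an AMPK-related kinase gene, read 7.04, 6.74 and 6.82 in F191G cells, against 6.30, 6.31 and 6.28 in VEC cells, a rise of 0.57 (SE 0.0945, adjusted p = 0.0461). Here the VEC arrays were nearly alike and the spread lay among the F191G arrays, with replicate A highest. Nuak1 averaged 6.87 ± 0.16 in F191G cells and 6.48 ± 0.17 in WT cells, a further called difference of 0.39 (SE 0.0945, adjusted p = 0.0371).

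Txndc16, a thioredoxin-domain gene of the endoplasmic reticulum, had the tightest groups: 6.01, 5.98 and 5.97 in F191G cells, against 5.44, 5.46 and 5.45 in VEC cells. Its rise was 0.53 (SE 0.074, adjusted p = 0.0267). F191G cells were also lower than WT cells, which averaged 6.38 ± 0.07, with a difference of -0.39 (SE 0.074, adjusted p = 0.0248), so for Txndc16 they lay between WT and VEC cells. B4galt5, a galactosyltransferase gene of glycolipid synthesis, read 9.21, 9.15 and 9.09 in F191G cells, against 8.75, 8.62 and 8.64 in VEC cells, a rise of 0.48 (SE 0.0765, adjusted p = 0.0393). The gene listed as 1700017B05Rik rose by 0.42 (SE 0.0697, adjusted p = 0.0461).

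**Figure D3:**
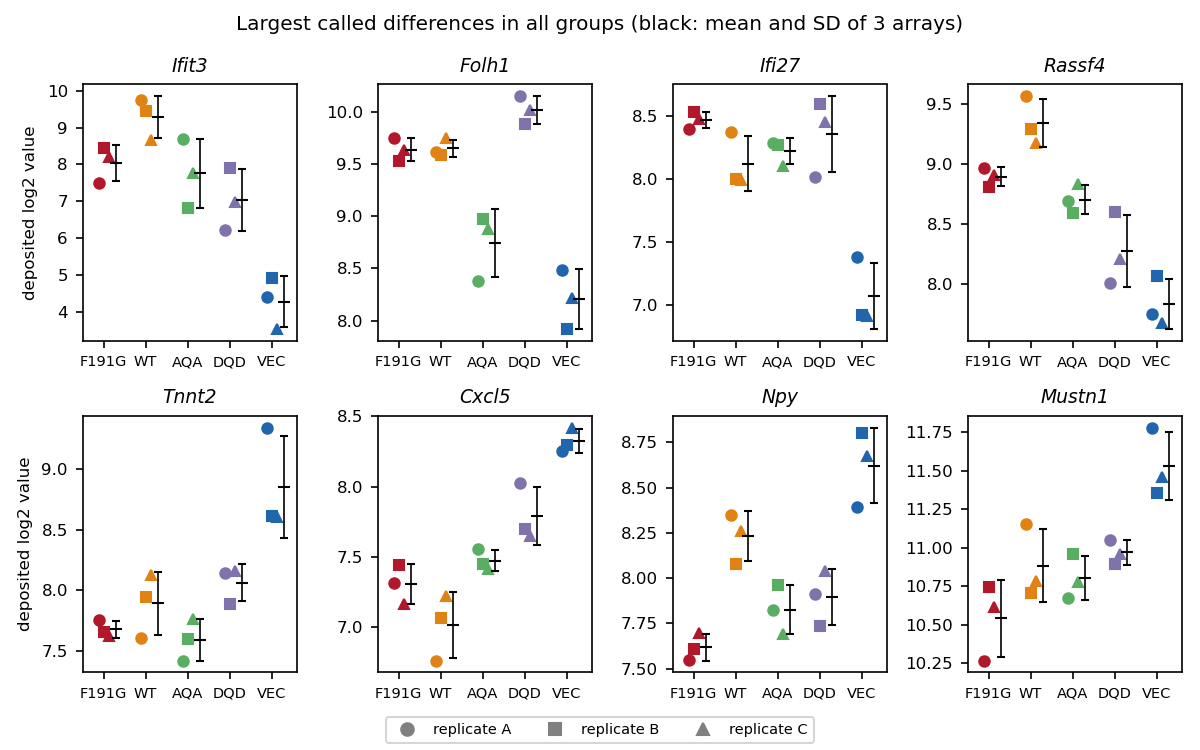
Deposited log2 value (vertical axis) of the 4 largest called rises and the 4 called genes with the largest falls, in F191G, WT, AQA, DQD and VEC cells; points are arrays, with the replicate letter as shape, and black bars are mean and SD of 3 arrays. For Npy the F191G arrays lie below the WT arrays, and for Folh1 the F191G and WT arrays overlap.

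Of the chemokine genes whose products attract neutrophils, Cxcl5 fell in F191G cells, and Cxcl2 and Cxcl1 read lower without passing the test. Cxcl5 read 7.32, 7.45 and 7.16 in F191G cells, against 8.26, 8.29 and 8.42 in VEC cells, a fall of 1.01 on the log2 scale (SE 0.127, adjusted p = 0.0118). The groups did not overlap, and the difference was -0.96 within batch A and -1.11 within batch B. Cxcl2 had the lowest difference of all 19297 genes, but did not pass the test. It read 5.79, 6.66 and 6.46 in F191G cells, against 8.49, 8.58 and 8.28 in VEC cells (difference -2.15, SE 0.570, adjusted p = 0.187). The VEC arrays were close together and F191G A was the lowest array. The SE is that of all 5 groups, and WT cells were spread for this gene, at 9.60, 6.87 and 7.48. Cxcl1, from the same gene cluster, read 7.21, 8.38 and 8.17 in F191G cells, against 9.71, 9.56 and 9.22 in VEC cells (difference -1.58, SE 0.494, adjusted p = 0.251), and WT cells were spread there as well, at 10.90, 8.60 and 9.20. Cxcl15 differed by -0.79 (adjusted p = 0.146).

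Of 38 chemokine and cytokine genes 0 rose and 1 fell (10 at an unadjusted p under 0.05), beside 0.0466% and 0.0518% of all genes. The median difference of the list was -0.09, and in 11 (28.9%) every F191G array lay below every VEC array, beside 13.3% of all genes. That share was 31.0% among the haematopoietic markers, 23.3% among the endothelial and fibroblast markers and 22.0% among the collagens and matrix proteins. The median was -0.06 without F191G B. Ccl5, an interferon-inducible T cell attractant, was among the 2 members whose F191G arrays all lay above VEC, with 6.91, 6.70 and 6.85 in F191G cells, against 6.22, 5.51 and 5.49 in VEC cells (difference 1.08, SE 0.347, adjusted p = 0.273).

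Inhibitor genes of NF-kB read lower in F191G cells without passing the test. Nfkbia, which encodes the inhibitor I kappa B alpha, read 9.38, 10.09 and 9.94 in F191G cells, against 11.59, 10.98 and 10.78 in VEC cells (difference -1.31, SE 0.375, adjusted p = 0.219). Nfkbiz, which encodes a nuclear I kappa B protein, read 7.29, 7.997 and 7.97 in F191G cells, against 9.39, 8.82 and 8.67 in VEC cells (difference -1.21, SE 0.407, adjusted p = 0.290). In both genes F191G A was the lowest of the 6 arrays and VEC A the highest, so the difference for Nfkbia was -1.90 within batch A and -0.77 within batch B, and that for Nfkbiz -1.81 and -0.69. Of 26 NF-kB subunits, inhibitors and feedback targets 0 passed the test (7 at an unadjusted p under 0.05). Their median was -0.14, and -0.09 without F191G A. In 12 (46.2%) every F191G array lay below every VEC array and in 0 above, beside 13.3% and 7.76% of all genes. VEC A was the highest VEC array for 19 of the 26.

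The NF-kB letters stood in 1.63% of all windows and 1.83% of array genes with a window, in 8 of 27 chemokine and cytokine genes (29.6%) and in 5 of 21 NF-kB genes (23.8%). In the stretches printed above, Cxcl1 has matches 89 and 71 bases before the start, Cxcl2 97 and 78 bases and Nfkbia 29 bases. Chemokine and cytokine genes with a match had a median difference of 0.03 and those without -0.14, although Cxcl1 and Cxcl2 are among those with a match. Every F191G array lay below every VEC array in 25.0% of those with a match and 26.3% of those without. Over all array genes the medians were -0.03 for the 278 with a match and -0.02 for the 14883 without, and these shares were 16.5% and 13.1%. Among the NF-kB genes the medians were -0.30 with a match and -0.13 without. E-box letters CANNTG, which Twist1 dimers can bind, stood in 71.3% of array genes with a window, in 5 of 8 called rises and in 5 of 7 called falls that have one, and the form CATATG stood in 3.22% of the array genes and in 0 of these 15.

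**Figure D4:**
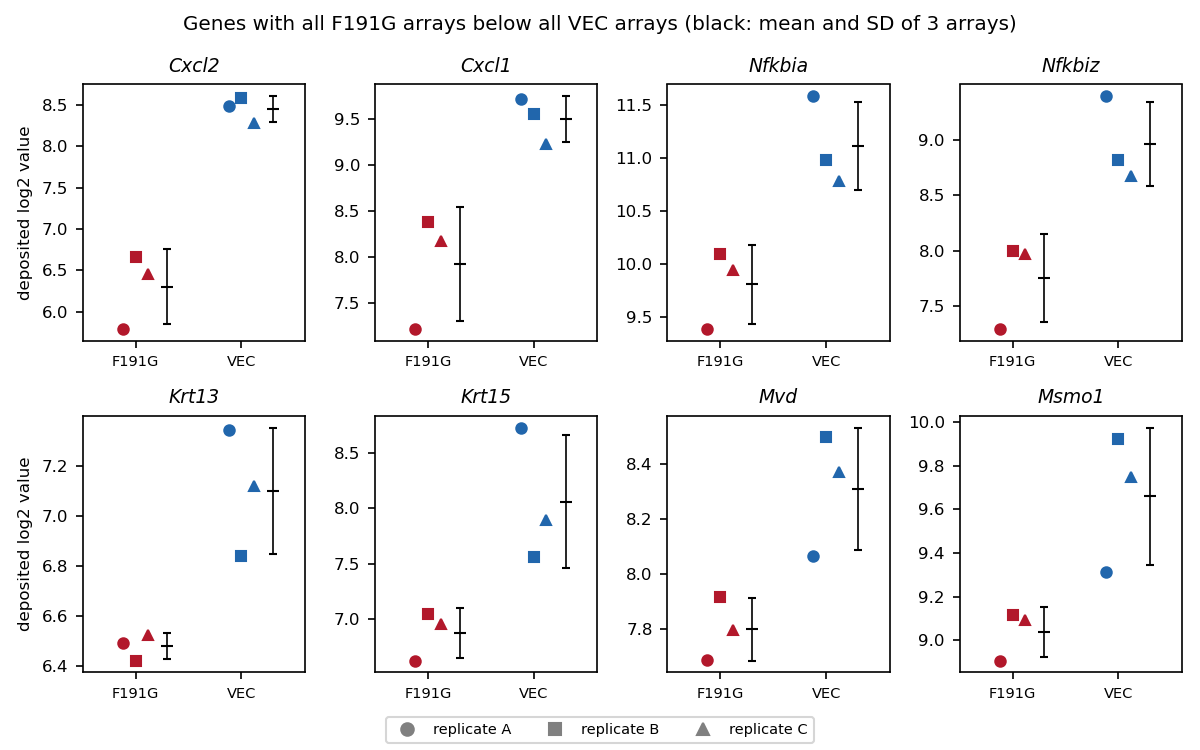
Deposited log2 value (vertical axis) of 8 chemokine, NF-kB inhibitor, keratin and sterol synthesis genes in F191G (left) and VEC cells (right); points are arrays, with the replicate letter as shape, and black bars are mean and SD of 3 arrays. All F191G arrays lie below all VEC arrays in each panel, although none of the 8 genes passed the test.

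Npy, the neuropeptide Y gene, fell. It read 7.55, 7.61 and 7.70 in F191G cells, against 8.39, 8.80 and 8.67 in VEC cells, and the groups were well apart. The difference was -1.004 (SE 0.119, adjusted p = 0.00801), with -1.05 within batch A and -1.02 within batch B. F191G cells averaged 7.62 ± 0.07, AQA cells 7.83 ± 0.13, DQD cells 7.90 ± 0.15 and WT cells 8.23 ± 0.14 (SD, n = 3 each), and the difference from WT of -0.61 was called too (SE 0.119, adjusted p = 0.0272). Of 27 neural and neuroendocrine genes Npy was the 1 that fell and 0 rose, beside 0.0518% and 0.0466% of all genes. The list was chosen with earlier results known, so this 1 call does not describe it.

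A pair of genes tied to striated muscle fell as well. Tnnt2, cardiac troponin T, read 7.76, 7.65 and 7.62 in F191G cells, against 9.34, 8.61 and 8.60 in VEC cells, a difference of -1.17 (SE 0.187, adjusted p = 0.0393). VEC A stood above the other two VEC arrays, and without 1 array the difference ran from -1.36 to -0.94. Mustn1, a small nuclear protein gene of the musculoskeletal system, read 10.27, 10.75 and 10.61 in F191G cells, against 11.78, 11.35 and 11.46 in VEC cells, a difference of -0.99 (SE 0.152, adjusted p = 0.0393). The list of 37 muscle contractile genes was chosen with earlier results known and also holds Mustn1, a nuclear protein gene. Tnnt2 and Mustn1 were the 2 of its genes that fell, beside 0.0518% of all genes, and 0 rose. The median of the list was -0.05, beside -0.03 over all genes, and -0.08 without F191G C.

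The remaining 6 called falls were smaller. Dhcr7, the last reductase of cholesterol synthesis, read 7.76, 7.75 and 7.69 in F191G cells, against 8.10, 8.27 and 8.35 in VEC cells, a difference of -0.51 (SE 0.074, adjusted p = 0.0282). Of 36 cholesterol and fatty acid synthesis genes 0 rose and 1 fell (10 at an unadjusted p under 0.05), beside 0.0466% and 0.0518% of all genes. The median of the list was -0.16, and 5 of its differences were positive. Without VEC B the median was -0.08, and without VEC A it was -0.23 with 2 members called. The sterol genes Mvd and Msmo1 differed by -0.51 (adjusted p = 0.0949) and -0.62 (adjusted p = 0.146), with every F191G array below every VEC array. Such separation held for 8 of the 36 (22.2%), beside 13.3% of all genes and a like share of the collagens and of the endothelial and fibroblast markers, and VEC A was the lowest VEC array for 28 of the 36. Aldh1a3, a retinaldehyde dehydrogenase gene, read 7.18, 6.97 and 7.05 in F191G cells, against 7.56, 7.56 and 7.59 in VEC cells, a difference of -0.51 (SE 0.0797, adjusted p = 0.0393). Coq3, a methyltransferase gene of ubiquinone synthesis, fell by 0.50, Cpn1, a plasma carboxypeptidase gene, by 0.47 and Elmod1 by 0.64 on the log2 scale (adjusted p = 0.0393, 0.0393 and 0.0462). The olfactory receptor gene Olfr513 fell by 0.37 (adjusted p = 0.0393), at levels of 4.35, 4.35 and 4.45 in F191G cells, against 4.80, 4.72 and 4.74 in VEC cells.

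Keratin genes read lower on the F191G arrays without passing the test. Of 15 measured, 0 were called (8, or 53.3%, at an unadjusted p under 0.05, beside 11.7% of all genes), the median difference was -0.23, and in 8 (53.3%) every F191G array lay below every VEC array, beside 13.3% of all genes. Without VEC B, the VEC array that was lowest for most keratins, the median was -0.42. In that fit 3 keratins were called by limma, namely Krt13, Krt14 and Krt17, at -0.75, -0.94 and -0.92 (adjusted p = 0.0200, 0.0200 and 0.0326). Without any other of the 6 arrays 0 keratins were called, and the median ran from -0.33 to -0.22. Krt13 read 6.49, 6.42 and 6.52 in F191G cells, against 7.34, 6.84 and 7.12 in VEC cells (difference -0.62, SE 0.108, adjusted p = 0.0547). Krt15, a basal keratin, read 6.62, 7.05 and 6.96 in F191G cells, against 8.73, 7.56 and 7.90 in VEC cells (difference -1.19, SE 0.264, adjusted p = 0.119). Krt14, another basal keratin, read 5.59, 5.63 and 5.62 in F191G cells, against 6.81, 5.66 and 6.33 in VEC cells (difference -0.65, adjusted p = 0.251). VEC A was the highest VEC array for 10 of the 15 keratins and VEC B the lowest for 12, and the mean keratin level was 6.30, 6.26 and 6.33 on the F191G arrays, against 7.10, 6.34 and 6.68 on the VEC arrays. Scgb1a1, a secretoglobin gene of airway and glandular epithelium, read 5.69, 5.74 and 5.50 in F191G cells, against 7.75, 6.03 and 6.43 in VEC cells, with the VEC arrays in the same order (difference -1.10, adjusted p = 0.219).

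Genes of epithelial-mesenchymal transition, the process for which Twist1 is known, gave 0 calls among 39 (9 at an unadjusted p under 0.05) and a median of -0.05. Vimentin (Vim) read 12.64, 12.37 and 12.45 in F191G cells, against 12.45, 12.39 and 12.40 in VEC cells, and fibronectin (Fn1) 12.83, 12.76 and 12.78 in F191G cells, against 12.98, 12.81 and 12.90 in VEC cells. Both overlapped. Of the repressors of E-cadherin, Snai1 averaged 6.73 ± 0.03 in F191G cells and 6.78 ± 0.04 in VEC cells, and Zeb2 averaged 8.43 ± 0.03 in F191G cells and 8.37 ± 0.05 in VEC cells (SD, n = 3 each). The matrix glycoprotein gene Sparc read 11.16, 11.10 and 11.11 in F191G cells, against 11.38, 11.53 and 11.48 in VEC cells (difference -0.34, adjusted p = 0.204), and the receptor kinase gene Axl 11.32, 10.89 and 11.01 in F191G cells, against 10.71, 10.68 and 10.72 in VEC cells (difference 0.37, adjusted p = 0.276). Of 47 epithelial junction and polarity genes 0 were called (4 at an unadjusted p under 0.05).

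Among 35 E proteins, Id proteins and other basic helix-loop-helix factors 0 were called (6 at an unadjusted p under 0.05). Id1, an inhibitor that binds E proteins without binding DNA, read 9.54, 9.17 and 9.17 in F191G cells, against 8.95, 8.28 and 8.69 in VEC cells (difference 0.66, SE 0.162, adjusted p = 0.162). Twist2, the closest relative of Twist1, averaged 8.94 ± 0.06 in F191G cells and 9.03 ± 0.12 in VEC cells (SD, n = 3 each). Hoxa9, a homeobox factor studied in prostate cancer, read 6.42, 6.39 and 6.24 in F191G cells, against 6.67, 6.44 and 6.35 in VEC cells (difference -0.13, adjusted p = 0.657), and 0 of 16 Hoxa genes and cofactors were called (2 at an unadjusted p under 0.05). Myc, the oncogene that drives the line, read 10.65, 10.10 and 10.31 in F191G cells, against 9.56, 9.94 and 10.08 in VEC cells (difference 0.49, SE 0.154, adjusted p = 0.251); the probe set was not examined for whether it also sees the human transgene. Of 39 Myc target and ribosome biogenesis genes 0 were called (1 at an unadjusted p under 0.05).

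Other genes that were not called include several just short of the threshold and some with large differences. Cavin2, a coat protein gene of caveolae, read 8.30, 7.45 and 7.72 in F191G cells, against 5.42, 6.12 and 5.95 in VEC cells (difference 2.0, SE 0.367, adjusted p = 0.0750). Its groups were well apart, although WT cells ranged over 5.69, 7.18 and 6.81. Rnd3, an atypical small GTPase gene that loosens stress fibres, read 8.37, 8.02 and 7.92 in F191G cells, against 6.78, 7.44 and 7.26 in VEC cells (difference 0.94, adjusted p = 0.0547). Helz2, an interferon-induced helicase gene, differed by 0.97, the cathepsin gene Ctso by 0.65 and Tmx4 by 0.39, each with adjusted p = 0.0547, and Rnf24 by 0.59 (adjusted p = 0.0557). On the lower side, S100a16, a calcium-binding protein gene, differed by -0.52 (adjusted p = 0.0604), Naa60 by -0.36 (adjusted p = 0.0750) and P4ha3, a collagen prolyl hydroxylase gene, by -1.03 (adjusted p = 0.145). Sulf2, a heparan sulfatase gene, read 8.88, 9.39 and 9.36 in F191G cells, against 10.20, 10.06 and 10.03 in VEC cells (difference -0.89, SE 0.166, adjusted p = 0.0785).

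In the remaining lists few or no genes were called. The DNA replication and mitosis list gave 0 calls among 52 (0 at an unadjusted p under 0.05) with a median of 0.00, with 0.33 within batch A and -0.17 within batch B; F191G A was the highest F191G array for all 52. Of 34 p53 targets and cell cycle inhibitors 0 were called (3 at an unadjusted p under 0.05), where Plk3 differed by 0.57 (adjusted p = 0.134), and of 40 stress response genes Txndc16 alone rose, where Cth, an enzyme gene of cysteine synthesis, differed by 0.51 (adjusted p = 0.113). Cpn1 was the 1 call among 34 matrix proteases and inhibitors, in which Mmp19 differed by 0.32 (adjusted p = 0.0949). Nuak1 was the 1 call among 47 growth factor and receptor kinase genes, and Aldh1a3 the 1 among 34 oxidative stress genes. Of all genes 0.0985% were called. Nuak1 and Cpn1 are described above as an AMPK-related kinase gene and a plasma carboxypeptidase gene. The lists were chosen with earlier results of these data known, so these single calls do not describe the families. Collagens (50 genes), integrins (31), TGF-beta and BMP signalling (40), hypoxia and glycolysis (37) and endothelial and fibroblast markers (30) gave 0 calls, with 8, 2, 4, 6 and 3 genes at an unadjusted p under 0.05. In 11 of the 50 collagens and matrix proteins (22.0%) and 7 of the 30 endothelial and fibroblast markers (23.3%) every F191G array lay below every VEC array. For the endothelial and fibroblast markers the mean level ran from 5.40 to 5.47 on the F191G arrays and from 5.48 to 5.53 on the VEC arrays.

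**Figure D5:**
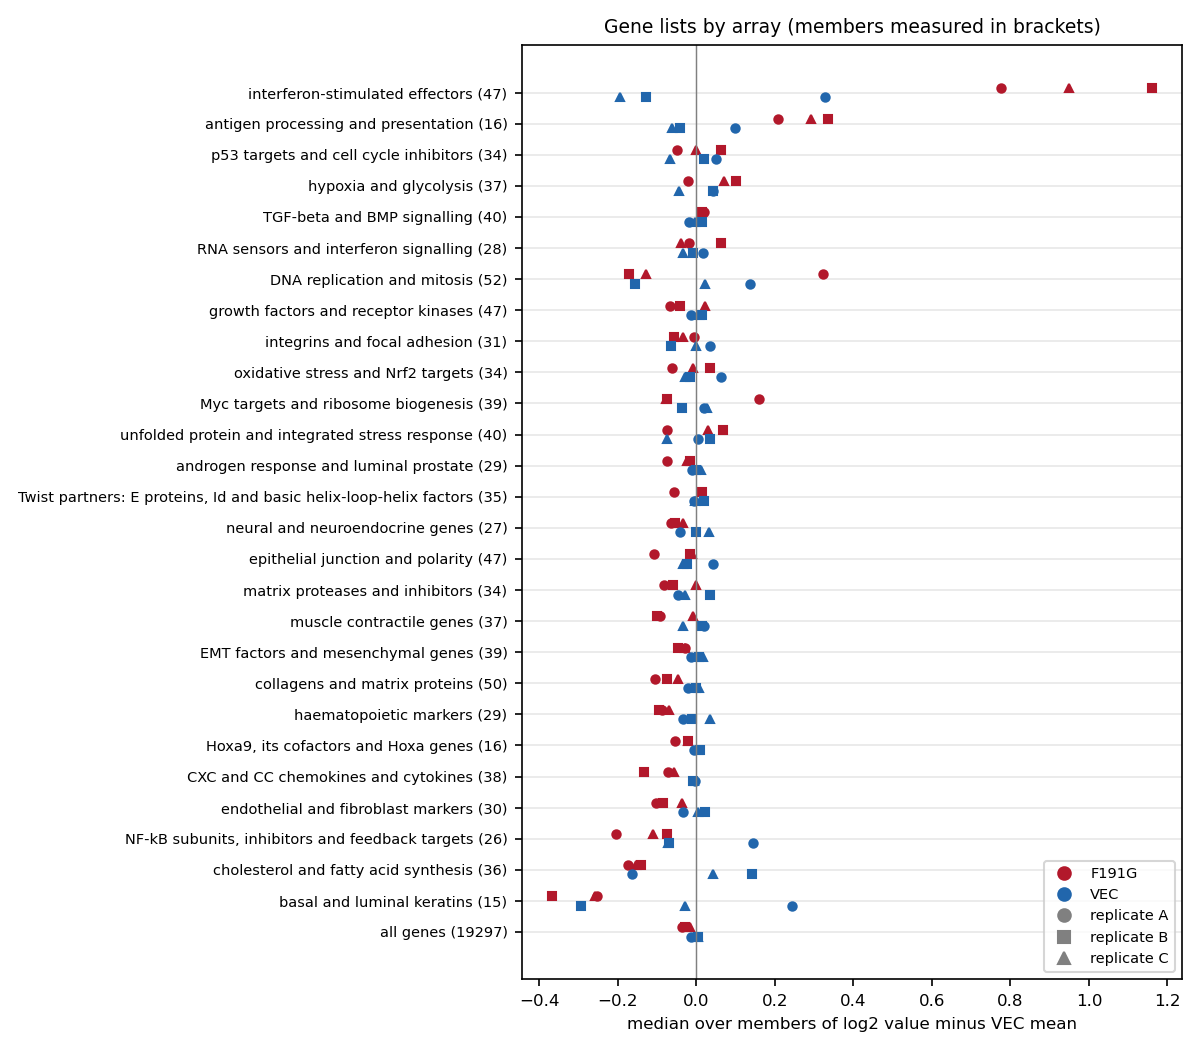
Median over each list's measured genes of the log2 value minus the VEC mean (horizontal axis), 1 row per list and 1 point per array, red for F191G and blue for VEC, with the number of measured genes in brackets. The interferon effectors lie farthest to the right, with F191G arrays between 0.78 and 1.16, and the row of all genes lies near 0.

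Set against WT cells with the same model, F191G cells had more calls than against VEC: 613 genes (3.18% of those tested) were higher and 762 (3.95%) lower. Of the 19 genes called against VEC, 4 also differed from WT, namely Npy, Txndc16, Nuak1 and Olfr513, the last by -0.23 (adjusted p = 0.0406). Of the 47 interferon effectors 0 were called against WT by limma (7 at an unadjusted p under 0.05). Their median difference was 0.04, and -0.06 to 0.22 without 1 array of either group, which does not show that the 2 groups are alike. Genes that were high in WT cells gave the largest differences. Klhl24 read 5.93, 6.52 and 6.58 in F191G cells, against 9.46, 8.14 and 9.09 in WT cells (difference -2.55, SE 0.352, adjusted p = 0.0173), with 7.41, 6.87 and 6.22 in VEC cells. Pdcd4, an inhibitor of translation initiation, read 7.51, 7.99 and 7.71 in F191G cells, against 10.03, 9.26 and 9.60 in WT cells (difference -1.89, SE 0.239, adjusted p = 0.0173), with 7.18, 7.77 and 6.80 in VEC cells. Angptl7, an angiopoietin-like factor gene, read 4.72, 5.30 and 5.06 in F191G cells, against 11.20, 7.35 and 10.31 in WT cells (difference -4.60, SE 0.858, adjusted p = 0.0244), with 5.15, 5.89 and 4.55 in VEC cells.

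Sulf2 and Irf1, which did not pass the test against VEC, were lower in F191G than in WT cells, by -0.75 (SE 0.166, adjusted p = 0.0316) and -1.67 (SE 0.458, adjusted p = 0.0483). Of the 52 DNA replication genes 7 were higher than in WT, with a median difference of 0.88 that leaned on WT A. Their median distance from the VEC mean was 0.32, -0.17 and -0.13 on the F191G arrays, against -1.66, -0.45 and -0.46 on the WT arrays. Without WT A the median difference was 0.50 with 2 calls, and it was 1.34 within batch A and 0.32 within batch B. The number called was 0 to 1 without an F191G array, 45 without WT B and 38 without WT C. Cenpk, a kinetochore gene, read 8.05, 7.34 and 7.39 in F191G cells, against 5.21, 6.87 and 6.53 in WT cells (difference 1.39, SE 0.359, adjusted p = 0.0420), and Atad5, a replication clamp unloader gene, 8.42, 7.64 and 7.75 in F191G cells, against 5.59, 7.17 and 7.08 in WT cells (difference 1.32, SE 0.350, adjusted p = 0.0452). WT A was the lowest WT array for both, and without it the differences were 0.92 and 0.84 and were not called. In place of these 1375 calls there were 150 without WT A, 0 without F191G A (2791 genes at an unadjusted p under 0.05), 226 without F191G B, 106 without F191G C, 2952 without WT B and 821 without VEC C.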

How the data were processed

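The deposited series table holds log2 values of 23811 probe sets on 15 arrays, made by the authors with RMA and analysed with limma, per the submitters' processing notes; no versions are stated. The design text also speaks of normalizing by Twist1 expression; its form, and whether it changed the deposited values, is unknown. No scale, centring or quantile step was added here. Of the probe sets, 20852 carry 1 gene symbol, 1440 several and 1519 are not listed in the platform annotation; those with 1 symbol were used, the brightest per gene, which gave 19297 genes (846 had several). Values run from 1.41 to 13.6. No detection calls were used; precision is limited by the number of arrays.

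A linear model of group and labelled batch was fitted in limma 3.58.1 (R 4.3.3) over all 15 arrays (9 residual and 3.93 prior degrees of freedom), with Benjamini-Hochberg adjustment over 19297 genes. An exact permutation test of 3 against 3 arrays cannot go below p = 0.10, so none was used. Tested on simulated data for this comparison, the fit over 19297 genes recovered 100% of genes changed by 1 and 78% of those changed by 0.5 (log2), and 7 of its 185 calls were unchanged genes. The simulated noise was independent between genes and arrays, and 200 genes were changed. It holds no shift shared by many genes on 1 array, so these shares do not give the recovery in the real data. There Usp18 and Ifit1 differed by 2.62 and 2.61 without being called. Deviations of same-lettered arrays correlated at -0.107 (A), 0.126 (B) and -0.176 (C), so letters were not used as pairs.

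The comparison, the 27 gene lists and the named genes were chosen with earlier results of these data known. Named genes are the called ones (up to 12 each way), the 8 each way with the smallest p and the 8 each way with the largest difference without overlap among those not called, the 8 each way against WT, up to 6 members per list by p, and a fixed set of Twist and epithelial-mesenchymal genes, with predicted and clone names passed over. Epcam, Krt5, Krt8 and Krt18 are marker genes. Ifit3b, Mx1, Zbp1, Ifnb1, Ifnar1, Jak1, Olfr513 and 1700017B05Rik fall outside this rule and were chosen after their values were seen. Alternatives covered the batch term, replicate block, Twist1 covariate, scaling, gene filter, variance model, single batches and single arrays. Promoters are RefSeq windows on GRCm38.p6; 15 of the 19 called genes have one.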

Additional observations from a re-analysis of the deposited data

How the results depend on the processing

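The 76 genes whose differences are printed kept their direction under every alternative that was run for them, in 1694 values: 1297 stayed on the same side of the threshold, 333 lost a call and 64 gained one. The 1297 include genes not called in the main fit that stayed uncalled, whereas only called genes can lose a call. These values therefore do not show that the calls were stable. Many of these genes were chosen for a small p or for groups without overlap, which favours a kept direction. Counts of calls moved far more. In place of 19 genes called between F191G and VEC there were 86 without a batch term, 1 with the Twist1 value as a covariate, 8 with median centring (5 higher and 3 lower, against 9 and 10), 13 with only these 2 groups (9 higher and 4 lower, 6 of them among the 19), 51 within batch B (46 higher and 5 lower, 3 of them among the 19) and 0 within batch A by limma (1094 at an unadjusted p under 0.05); leaving out 1 array gave 0 to 42, the last without WT A. With the replicate letter as a replicate block, which the arrays do not bear out as pairs, the count was 7 without a batch term and 0 with one (1437 at an unadjusted p under 0.05). In place of 1375 genes called between F191G and WT there were 2908 without a batch term, 251 with the replicate block and batch, 470 with the Twist1 covariate, 0 with only these 2 groups (3194 at an unadjusted p under 0.05), 0 within batch A (3641), 14 within batch B and 0 to 2952 without 1 array; median centring gave 1141 higher and 460 lower, against 613 and 762. Without the dimmest 33.3% of genes these were 1012 and 1006, on fewer genes tested. The median of the interferon effectors, 0.97, was 0.63 with the Twist1 covariate, 0.67 within batch A and 1.22 within batch B. Leaving out WT B or WT C was added after the data were seen. The causes were not tested.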
